A study of Mus musculus with 4 samples.

Results

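The main arms of the miR-17-92 and miR-106b-25 clusters were followed on 4 one-colour Agilent mouse miRNA arrays. The members were chosen by name, as the miRNA spots assigned to mmu-miR-17-5p, mmu-miR-18a-5p, mmu-miR-19a-3p, mmu-miR-20a-5p, mmu-miR-19b-3p and mmu-miR-92a-3p of miR-17-92 and to mmu-miR-106b-5p, mmu-miR-93-5p and mmu-miR-25-3p of miR-106b-25. They are 9 of the 1247 miRNAs on the array. All 9 were detected by the scanner software on all 4 arrays, and all 9 are among the 425 miRNAs that were tested. The RNA came from the stromal-vascular fraction (SVF) of visceral white adipose tissue (visWAT), the pellet of progenitors, vessel cells and immune cells left after collagenase digestion once floating adipocytes are removed. The mice were female and 8 weeks old. Their strain is C57/BL6 in the growth protocol, whereas the strain labels of the arrays count up from C57/BL6 to C57/BL9. In the CL group they received CL-316243, an agonist of the β3-adrenoceptor, at 1 mg/kg for 3 days, and in the vehicle group PBS for as long. The labels call the treatment subcutaneous and the methods call it intraperitoneal. Each group held 2 arrays, numbered 1 and 2 in the labels, and each array held RNA pooled from 5 mice, so the spread between arrays is one between pools.

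The 4 arrays shared 1 slide, where row 1 held vehicle and row 2 held CL, and slide row and treatment cannot be told apart. The replicate number went with the slide column, and mean signals of the negative control spots were 37.1 and 38.6 for vehicle 1 and CL 1 and 31.7 and 32.8 for vehicle 2 and CL 2. Between 386 and 431 miRNAs were detected per array, and no spot was saturated. miR-126-3p of endothelium and miR-223-3p of leukocytes, both known for cells of the SVF, were detected on all 4 arrays. Of 5 miRNAs listed for mesothelium and epithelium, 1 was detected on enough arrays to be tested.

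Each of these clusters is transcribed as 1 long precursor, from which several hairpins are cut and processed into mature miRNAs. The clusters are known as targets of MYC and E2F, and their products restrain inhibitors of the cell cycle and of cell survival, among them Cdkn1a and Bcl2l11, for which miR-17-92 was named an oncogenic cluster. In fat precursor cells, miR-17-92 is known to rise with clonal expansion and to favour adipocyte differentiation. Proliferation itself was not measured on these arrays. A miRNA finds its targets mainly through its seed, bases 2 to 8 from the 5′ end, so members with the same seed share many targets whichever cluster they come from.

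The mature sequences are shown because the seeds divide the members into 4 groups that cut across the clusters, and because some members differ by a few bases only. They were taken from RefSeq with the build GRCm38.p6, where all 9 members matched, and are written 5′ to 3′ with the seed in capitals. The first group carries the miR-17 seed, AAAGUGC.
mmu-miR-17-5p: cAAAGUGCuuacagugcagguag
mmu-miR-20a-5p: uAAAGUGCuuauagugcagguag
mmu-miR-106b-5p: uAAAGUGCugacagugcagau
mmu-miR-93-5p: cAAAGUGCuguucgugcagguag
mmu-miR-18a-5p stands alone with AAGGUGC.
mmu-miR-18a-5p: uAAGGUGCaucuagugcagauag
The miR-19 group carries GUGCAAA.
mmu-miR-19a-3p: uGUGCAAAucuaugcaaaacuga
mmu-miR-19b-3p: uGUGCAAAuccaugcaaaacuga
The miR-25/92 group carries AUUGCAC.
mmu-miR-92a-3p: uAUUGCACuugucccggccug
mmu-miR-25-3p: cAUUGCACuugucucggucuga
Counted from the 5′ end, mmu-miR-17-5p and mmu-miR-20a-5p differ at 2 bases (C1U and C12U), mmu-miR-17-5p and mmu-miR-106b-5p at 3 of the 21 bases they share (C1U, U10G and G20A), and mmu-miR-19a-3p and mmu-miR-19b-3p at 1 base (U11C).

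In GRCm38.p6 the 6 hairpins of miR-17-92 lie within 836 bases of the plus strand of chromosome 14, at chr14:115043671-115044506, in the order Mir17, Mir18, Mir19a, Mir20a, Mir19b-1 and Mir92-1. The 3 hairpins of miR-106b-25 lie within 498 bases of the minus strand of chromosome 5, at chr5:138165321-138165818. They lie inside Mcm7 (chr5:138164583-138172111), which codes for a subunit of the replicative helicase and is known to carry this cluster in an intron. The mature sequences of mmu-miR-19b-3p and mmu-miR-92a-3p are encoded a second time, base for base, by Mir19b-2 and Mir92-2 in the paralogous miR-106a-363 cluster on chromosome X, at chrX:52741693-52742567. Their array signals are therefore sums over both loci.

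Each member was read by 2 probes of different length with 20 spots each. For 8 members, the bases of the probes paired in full with that member and with no other mature mouse miRNA in RefSeq. The exception was mmu-miR-17-5p, whose probes pair with its last 12 and 13 bases and match mmu-miR-106a-5p of the X cluster just as well, since U10A, the sole difference between these miRNAs, lies outside them. The probes and the near-identical miRNA are shown because the mmu-miR-17-5p value depends on them, with the probes as DNA, 5′ to 3′, and the seed of the miRNA in capitals.
12-base probe: ctacctgcactg
13-base probe: ctacctgcactgt
mmu-miR-106a-5p: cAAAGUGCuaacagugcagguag
The array has no probe under the name mmu-miR-106a-5p. On each array at most 1 of the 20 spots of the 12-base probe was well above background, while all 20 spots of the 13-base probe were. Only full matches were searched, and binding of a probe to a near-identical miRNA was not tested. The probes of mmu-miR-19a-3p and mmu-miR-19b-3p are told apart by U11C alone, so their values may not be separate readings. The same limit holds for mmu-miR-17-5p and mmu-miR-20a-5p, where C12U is the sole difference that lies within the probes. A run of 11 bases of each mmu-miR-17-5p probe also pairs with mmu-miR-20a-5p. Since probes of different miRNAs differ in length and composition, signals were compared between arrays and never between miRNAs.

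The comparison of CL with vehicle asked how the members differed in the visWAT SVF after 3 days of β3-adrenergic stimulation. mmu-miR-106b-5p, mmu-miR-18a-5p and mmu-miR-19a-3p were higher in CL at an unadjusted p under 0.05, with log2 fold changes of 0.74, 0.56 and 0.82. No member was lower at that threshold, and 6 did not pass it. The share of members called higher, 3 of 9, is to be read against the 18.6% of all 425 tested miRNAs that were called higher and the 16.2% that were called lower. No member passed an adjusted p of 0.05 in limma, nor did any tested miRNA (0%), the smallest adjusted p being 0.103 among the members and 0.0909 among all tested. RNA came from mixed cells, so more cells of a type and more of a miRNA per cell cannot be told apart in these values.

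The log2 fold change was above 0 for 8 of the 9 members, against 209 of 425 tested miRNAs (49.2%). Its median was 0.32 over the members and -0.0079 over all tested miRNAs, of which the middle 50% lay between -0.33 and 0.34. For 7 members both CL arrays were above both vehicle arrays, which held for 38.1% of all tested miRNAs. No member changed by more than 1 on the log2 scale, a size that 36 tested miRNAs (8.47%) passed. The median log2 fold change was 0.32 in each cluster. Called higher were 2 of 6 members of miR-17-92 and 1 of 3 members of miR-106b-25, against 18.6% of all tested miRNAs.

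**Figure D1:**
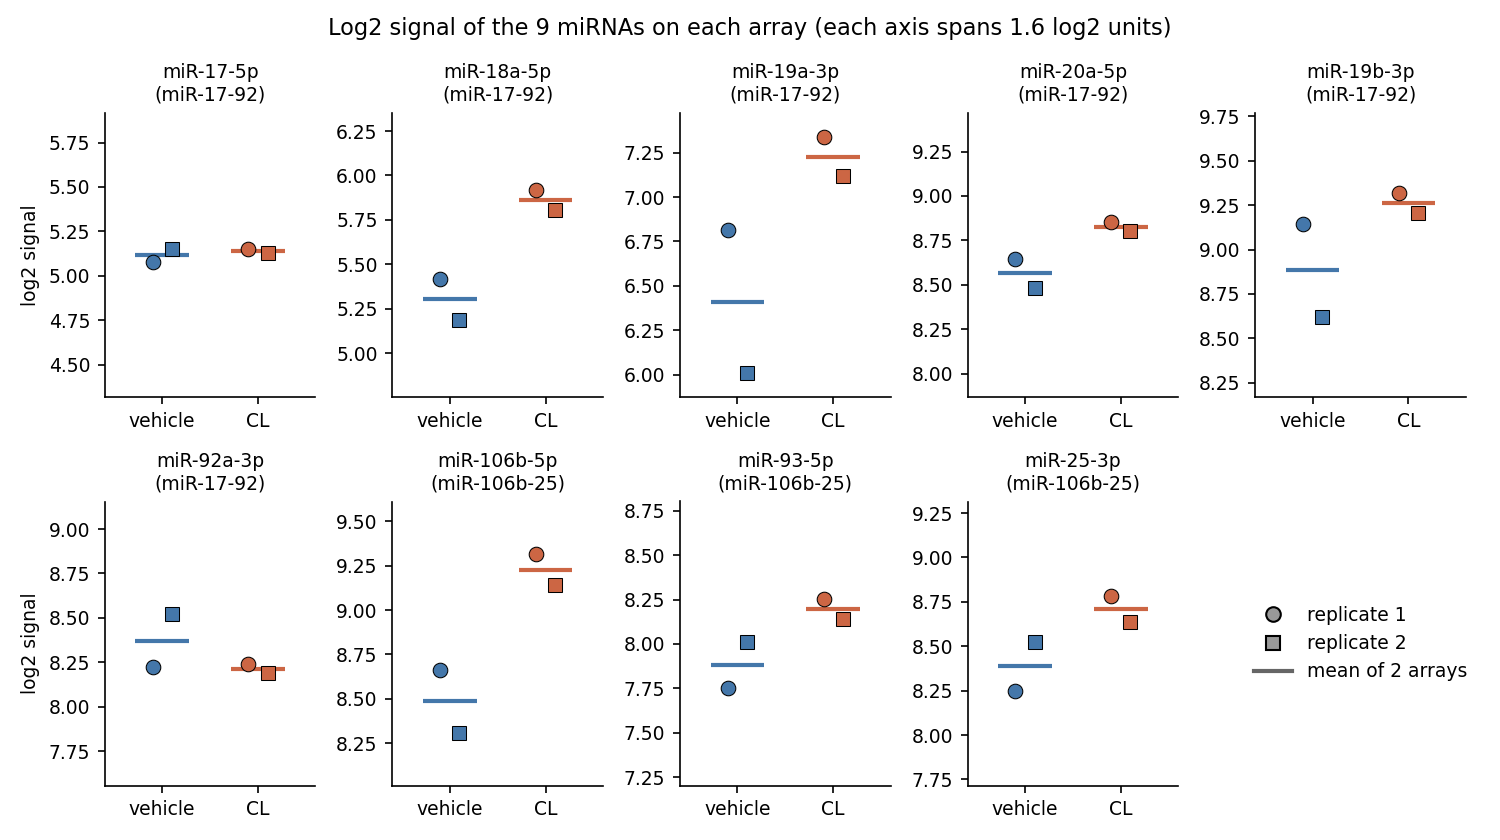
Log2 signal of the 9 miRNAs on the 4 arrays, 1 panel per miRNA, with circles for replicate 1, squares for replicate 2 and a bar for the mean of 2 arrays. Both CL arrays lie above both vehicle arrays in 7 panels, and the groups overlap for miR-17-5p and miR-92a-3p.

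**Figure D2:**
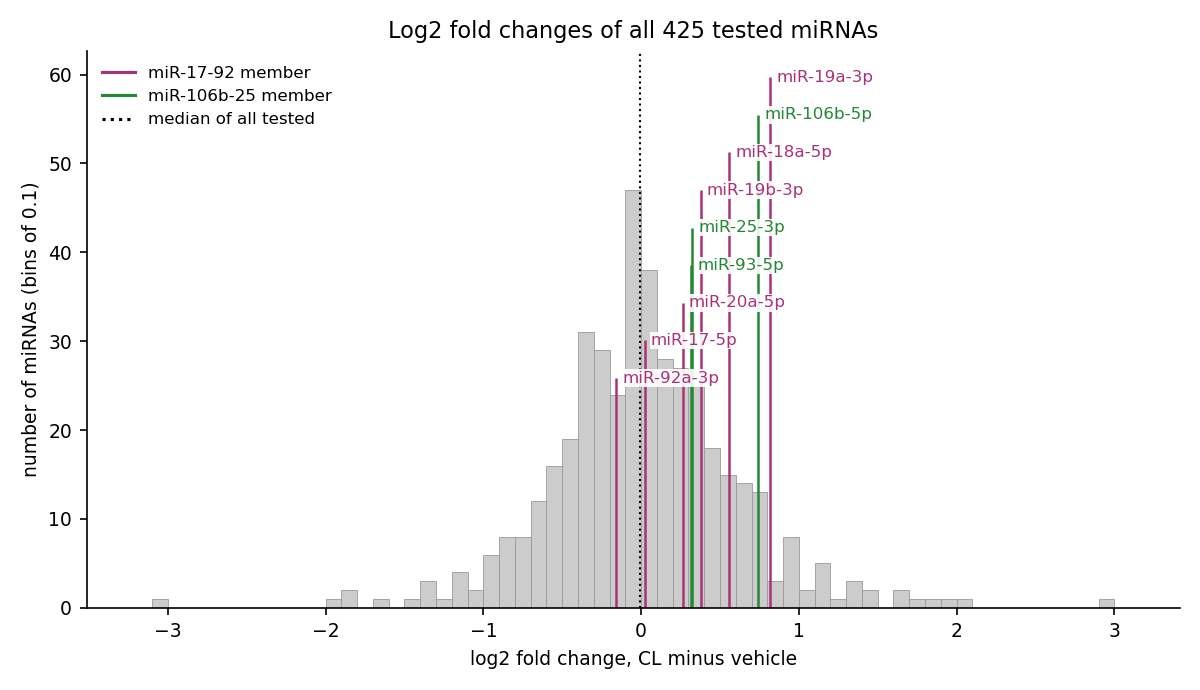
Number of miRNAs by log2 fold change (CL minus vehicle, bins of 0.1) over the 425 tested miRNAs, with a line for each of the 9 members. The members run from -0.16 for miR-92a-3p to 0.82 for miR-19a-3p, and the dotted line is the median of all tested, -0.0079.

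Among the products of miR-106b-25, mmu-miR-106b-5p, a miR-17 seed member known to target Cdkn1a, had log2 signals of 8.66 and 8.31 in vehicle and 9.31 and 9.14 in CL. Both CL arrays were above both vehicle arrays, by more than the vehicle arrays differed from each other. Its log2 fold change was 0.74 (SE 0.174, 95% interval 0.27 to 1.21), 1.67-fold higher in CL, with limma's unadjusted p at 0.0107 and its adjusted p at 0.103. All 40 of its spots had a higher mean log2 signal in CL than in vehicle.

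mmu-miR-93-5p, the next hairpin of the cluster and a miR-17 seed member as well, had log2 signals of 7.75 and 8.01 in vehicle and 8.25 and 8.14 in CL. The CL arrays were again both higher, but the gap between vehicle 2 and CL 2 was smaller than that between the vehicle arrays. The log2 fold change was 0.32 (SE 0.147) and did not pass the test in limma (unadjusted p = 0.0906, adjusted p = 0.196). mmu-miR-25-3p, the last hairpin, which carries the miR-25/92 seed, gave 8.25 and 8.53 in vehicle and 8.78 and 8.64 in CL. It showed the same arrangement as mmu-miR-93-5p, with vehicle 2 the nearer of the vehicle arrays to the CL arrays. Its log2 fold change was 0.32 (SE 0.154, limma, unadjusted p = 0.0985, adjusted p = 0.202).

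In miR-17-92, mmu-miR-18a-5p, the sole member with the miR-18 seed, had log2 signals of 5.42 and 5.18 in vehicle and 5.92 and 5.80 in CL. The groups did not overlap, and the gap between them was wider than the gap within either group. Its log2 fold change was 0.56 (SE 0.143, 95% interval 0.18 to 0.94), 1.47-fold higher in CL, with limma's unadjusted p at 0.0144 and its adjusted p at 0.103. Its 18-base probe was well above background in 12 and 1 of 20 spots on the vehicle arrays and in 19 of 20 on each CL array, whereas its 19-base probe was so in all spots of all arrays.

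mmu-miR-19a-3p, which carries the miR-19 seed, had log2 signals of 6.81 and 6.01 in vehicle and 7.34 and 7.12 in CL. The CL arrays were both higher, and the vehicle arrays stood further apart than for any other member. Its log2 fold change was 0.82 (SE 0.303, 95% interval 0.0069 to 1.63), 1.76-fold higher in CL, with limma's unadjusted p at 0.0488 and its adjusted p at 0.140. mmu-miR-19b-3p, which differs from it by 1 base, gave 9.15 and 8.62 in vehicle and 9.32 and 9.20 in CL. Vehicle 2 was again the low array, and vehicle 1 came close to CL 2. The log2 fold change of mmu-miR-19b-3p was 0.38 (SE 0.213) and did not pass the test in limma (unadjusted p = 0.145, adjusted p = 0.257).

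mmu-miR-20a-5p, which carries the miR-17 seed, had log2 signals of 8.65 and 8.48 in vehicle and 8.85 and 8.80 in CL. The groups did not overlap, but the difference was small, with a log2 fold change of 0.26 (SE 0.127, limma, unadjusted p = 0.0995, adjusted p = 0.202). Of the members, this one lay nearest to the mean pattern of all 9 over the arrays (distance 0.11 in log2 units, against 0.66 for mmu-miR-19a-3p, the farthest).

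The outer hairpins of miR-17-92 gave the members whose groups overlapped. mmu-miR-17-5p, the name-giving miRNA, had log2 signals of 5.08 and 5.15 in vehicle and 5.15 and 5.13 in CL, all within a narrow band. Its log2 fold change was 0.023 (95% interval -0.29 to 0.33, limma, unadjusted p = 0.853, adjusted p = 0.885), and 25 of 39 spots were higher in CL. mmu-miR-92a-3p, known as an inhibitor of angiogenesis in endothelial cells, had log2 signals of 8.22 and 8.52 in vehicle and 8.24 and 8.19 in CL. Vehicle 2 was above the other 3 arrays, which lay close together. The log2 fold change of mmu-miR-92a-3p was -0.16 (95% interval -0.56 to 0.25, limma, unadjusted p = 0.350, adjusted p = 0.474), and 5 of 38 spots were higher in CL. For the other 7 members, 40 of 40 spots were higher in CL, which describes how evenly the spots of an array behaved, since spots are no replicates of the treatment.

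**Figure D3:**
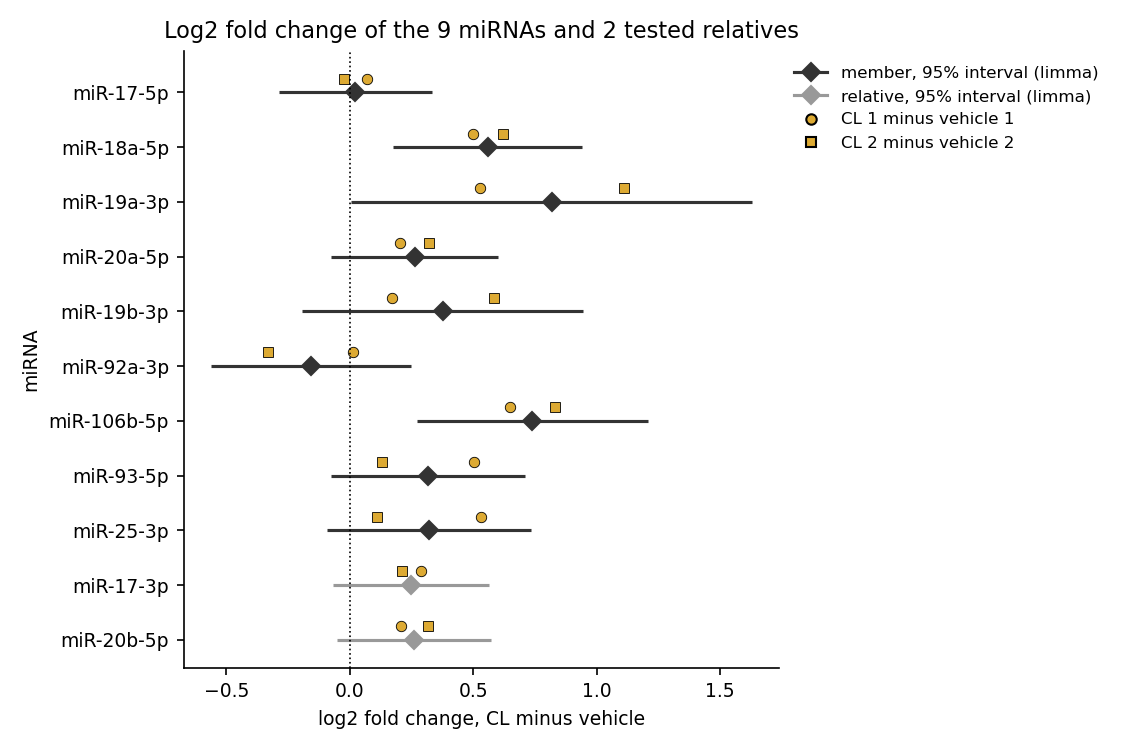
Log2 fold change (CL minus vehicle) of the 9 members and of miR-17-3p and miR-20b-5p, as diamonds with limma's 95% interval, with the difference within each replicate number as a circle (number 1) and a square (number 2). The intervals of miR-18a-5p, miR-19a-3p and miR-106b-5p lie above 0, the lower end for miR-19a-3p being 0.0069.

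Within replicate number 1, CL was above vehicle for 9 of 9 members, by a median of 0.50 on the log2 scale. Within number 2 it was above vehicle for 7 of 9, by a median of 0.32, with mmu-miR-92a-3p at -0.33 and mmu-miR-17-5p at -0.024. Of all 425 tested miRNAs, 229 were above vehicle within number 1 and 204 within number 2, with median differences of 0.018 and -0.015. mmu-miR-18a-5p differed by 0.50 and 0.62 and mmu-miR-106b-5p by 0.65 and 0.83 within the numbers. These pairs of values lay close together. mmu-miR-19a-3p differed by 0.53 and 1.11, and mmu-miR-19b-3p by 0.17 and 0.58. For mmu-miR-93-5p and mmu-miR-25-3p the larger difference was within number 1, at 0.50 and 0.53, against 0.13 and 0.11 within number 2.

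The replicate number, and so the slide column, was also taken as a block. Of all 425 tested miRNAs, 74 were called higher in limma at an unadjusted p of 0.05, among them the same 3 members. Their adjusted p in limma was then 0.0525 for mmu-miR-106b-5p, 0.0653 for mmu-miR-19a-3p and 0.0762 for mmu-miR-18a-5p, so that none passed 0.05, while 40 of all tested miRNAs did, 15 of them higher in CL (3.53% of those tested). When median polish, which summarises the spots, was run to a tolerance of 0.0001 in place of 0.01, an alternative chosen after seeing the data, the block fit gave adjusted p-values in limma of 0.0146 for mmu-miR-106b-5p, 0.0137 for mmu-miR-19a-3p and 0.0470 for mmu-miR-18a-5p, and 111 of all tested miRNAs passed. The calls at the adjusted threshold thus turned on a setting that left the members' log2 fold changes the same to 2 decimals.

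The 2 arrays of a group did not differ alike for all members. Vehicle 2 was lower than vehicle 1 for 5 members, namely mmu-miR-18a-5p, mmu-miR-19a-3p, mmu-miR-19b-3p, mmu-miR-20a-5p and mmu-miR-106b-5p. It was higher for the other 4, and both miR-25/92 seed members were among these. Over all tested miRNAs vehicle 2 was lower for 44.5%. Between the CL arrays, CL 2 was lower than CL 1 for 9 of 9 members, against 43.1% of all tested miRNAs, with differences from -0.020 for mmu-miR-17-5p to -0.22 for mmu-miR-19a-3p.

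**Figure D4:**
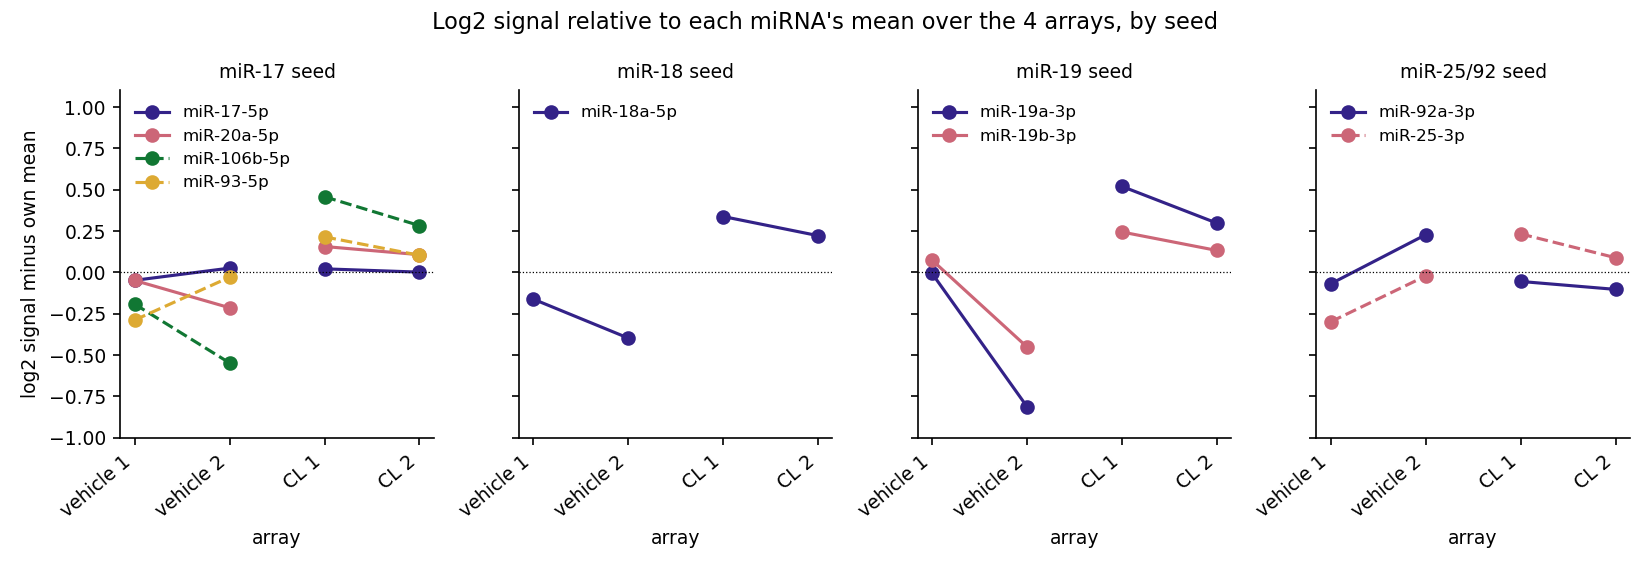
Log2 signal of each member minus its own mean over the 4 arrays, 1 panel per seed, with solid lines for miR-17-92, dashed lines for miR-106b-25 and each line joining the 2 arrays of a group. miR-19a-3p and miR-19b-3p share a low value on vehicle 2, and miR-92a-3p and miR-25-3p share a high one relative to vehicle 1 but part on the CL arrays.

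Calls by seed are to be read against the 18.6% of all 425 tested miRNAs that were called higher, and each group is small. In the miR-17 seed group, 1 of 4 members was called higher. The log2 fold changes there ran from 0.023 for mmu-miR-17-5p through 0.26 and 0.32 for mmu-miR-20a-5p and mmu-miR-93-5p to 0.74 for mmu-miR-106b-5p. In the miR-19 group 1 of 2 was called, at 0.82 for mmu-miR-19a-3p and 0.38 for mmu-miR-19b-3p. In the miR-25/92 group none was called, and its members had opposite signs, at -0.16 for mmu-miR-92a-3p and 0.32 for mmu-miR-25-3p. Differences between members, seeds or clusters were not tested.

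Leaving out single arrays moved the counts. Without vehicle 1, 5 members were called higher (mmu-miR-18a-5p, mmu-miR-19a-3p, mmu-miR-20a-5p, mmu-miR-19b-3p and mmu-miR-106b-5p) and mmu-miR-92a-3p was called lower, at a log2 fold change of -0.31, all 6 with an adjusted p under 0.05 in limma. With that array left out, 263 of all 425 tested miRNAs were called at the unadjusted threshold, against 148 with all arrays, and 230 passed the adjusted one. Without vehicle 2, the log2 fold changes of mmu-miR-93-5p and mmu-miR-25-3p were 0.45 and 0.46, against 0.32 for each with all arrays. Without CL 1 no member was called, with 61 tested miRNAs called in all. Without CL 2, the log2 fold changes of mmu-miR-19a-3p, mmu-miR-106b-5p and mmu-miR-18a-5p were 0.93, 0.83 and 0.62. The lone array of a group was assumed to vary like the other group in these fits. With single arrays left out, the log2 fold change of mmu-miR-106b-5p lay between 0.56 and 0.92 and that of mmu-miR-18a-5p between 0.44 and 0.68. That of mmu-miR-19a-3p ran from 0.41 without vehicle 2 to 1.22 without vehicle 1.

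**Figure D5:**
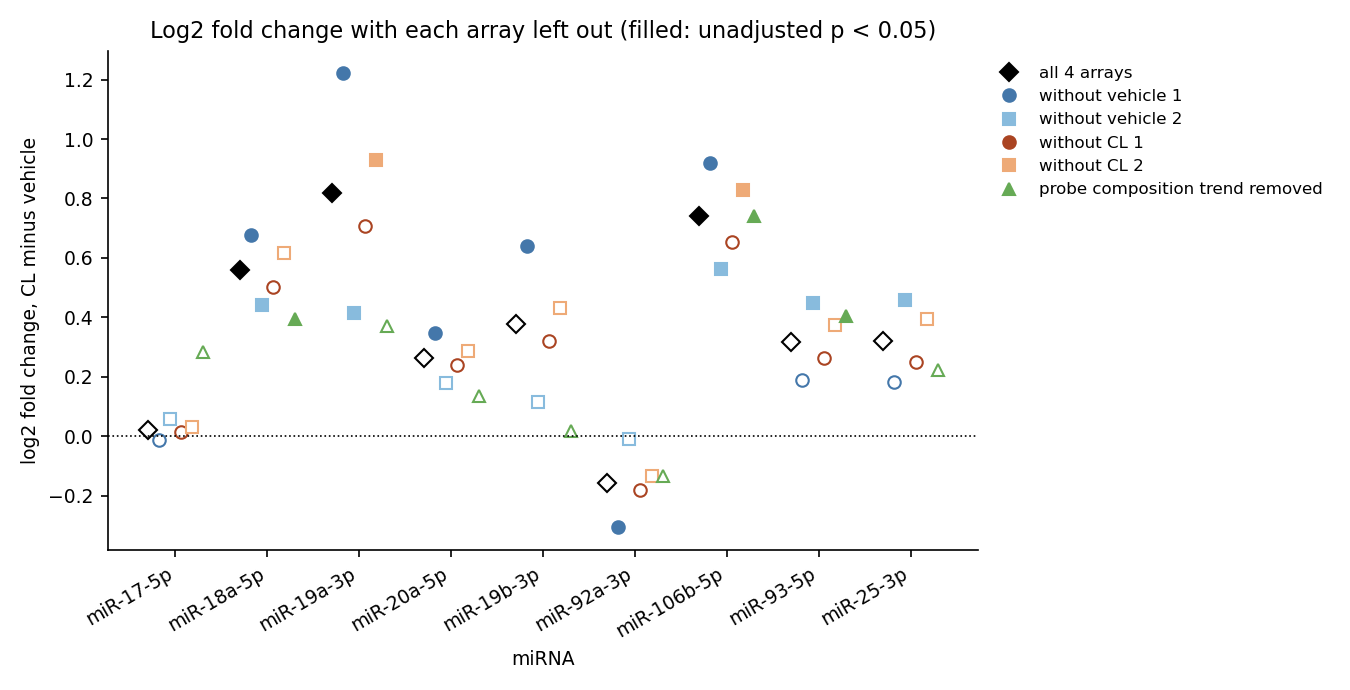
Log2 fold change (CL minus vehicle) of the 9 members with all 4 arrays, with each array left out, and with the trend on probe composition removed, filled where limma's unadjusted p was under 0.05. The values for miR-19a-3p spread from 0.37 to 1.22 and those for miR-106b-5p from 0.56 to 0.92.

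The longest probes of the members differed in length and composition. They had 21 and 20 bases for mmu-miR-19a-3p and mmu-miR-19b-3p, the most among the members, and 13 for mmu-miR-17-5p, the fewest. C made up 14.3% and 15.0% of the bases of the longest probes of mmu-miR-19a-3p and mmu-miR-19b-3p, and 27.8% to 38.5% of those of the other 7 members. When a linear trend on the longest probe's length and its shares of C and G was removed from every array, an alternative chosen with earlier results known, the log2 fold change of mmu-miR-19a-3p went from 0.82 to 0.37 and that of mmu-miR-19b-3p from 0.38 to 0.018. That of mmu-miR-17-5p went from 0.023 to 0.28, and that of mmu-miR-106b-5p stayed at 0.74, with an adjusted p of 0.0477 in limma. mmu-miR-18a-5p, at 0.40, and mmu-miR-93-5p, at 0.40, were also called at the unadjusted threshold. The count of members called higher was 3 as before, with mmu-miR-93-5p in place of mmu-miR-19a-3p. In that setting 92 of all 425 tested miRNAs were called higher and 51 passed the adjusted threshold in either direction. The median over the members was 0.28 against 0.017 over all tested miRNAs. The trend took length, C and G together, so their parts are not told apart by it. The part of probe length or composition in the members' differences was not tested otherwise.

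The other arms of the hairpins that encode the members, with Mir19b-2 and Mir92-2 on chromosome X included, were mostly not detected. Such arms usually come from the strand that is degraded, and of 11 on the array mmu-miR-17-3p was the sole one tested. It had log2 signals of 5.41 and 5.38 in vehicle and 5.70 and 5.59 in CL. Both CL arrays were higher, at a log2 fold change of 0.25 (SE 0.118, limma, unadjusted p = 0.0972, adjusted p = 0.202), so the arm from the hairpin of mmu-miR-17-5p was not called either. The other 10 arms were detected on no array, and their log2 signals lay between 3.58 and 4.13.

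Of 8 arms listed for the paralogous miR-106a-363 cluster on chromosome X, 7 had probes and 1 was detected. That list leaves out the arms of Mir19b-2 and Mir92-2, which also encode mmu-miR-19b-3p and mmu-miR-92a-3p. The detected one was mmu-miR-20b-5p, a miR-17 seed member that differs from mmu-miR-20a-5p at 2 bases (U1C and U10C). Its probes pair from base 4 or 5 onward, so only U10C lies within them. Binding of mmu-miR-20a-5p to these probes was not tested. The log2 signals of mmu-miR-20b-5p were 7.44 and 7.35 in vehicle and 7.65 and 7.67 in CL. The groups did not overlap, and the log2 fold change was 0.26 (SE 0.117, limma, unadjusted p = 0.0819, adjusted p = 0.188), next to the 0.26 of mmu-miR-20a-5p. mmu-miR-363-3p, a miR-25/92 seed miRNA of that cluster, and mmu-miR-92b-3p, which has the same seed, were detected on no array. mmu-miR-32-5p, which shares this seed too, was detected on both CL arrays and on no vehicle array, with log2 signals of 4.25 and 3.92 in vehicle and 4.45 and 4.57 in CL. At most 1 of its 40 spots was well above background on any array, so no fold change is given.

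The pattern of the members over the arrays was set beside that of other miRNAs by the distance between log2 signals centred on their own mean, over the 4 arrays. The mean of the 9 members stood at -0.12 for vehicle 1 and -0.25 for vehicle 2, against 0.24 for CL 1 and 0.13 for CL 2. The tested miRNAs outside the listed ones with the smallest distance to it were mmu-miR-3096b-3p (0.0553), mmu-miR-7a-5p (0.0668) and mmu-miR-1949 (0.0687), with log2 fold changes of 0.36, 0.36 and 0.37. With 4 arrays in all, many miRNAs can lie this near, and the distances are given as a description.

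Marker miRNAs of several cell types moved between the groups as well. Of 5 leukocyte miRNAs 2 were called higher, miR-142-3p and miR-142-5p, and 1 lower, miR-150-5p, and the log2 of their summed signal was 11.19 and 10.78 in vehicle and 11.75 and 11.71 in CL. Of 6 fibroblast and mesenchymal miRNAs 4 were called higher, at log2 fold changes from 0.95 to 1.48. The others went the other way, with miR-145a-5p called lower at -0.75 and miR-143-3p not called at -0.43. The sums of this mixed list were 11.98, 11.32, 12.68 and 12.71. Both sums were lowest on vehicle 2, and bright probes weigh most in them. On the same lists, miR-150-5p, miR-155-5p and miR-145a-5p were highest on vehicle 2, at 7.95, 5.51 and 7.25. Of the members, mmu-miR-18a-5p, mmu-miR-19a-3p, mmu-miR-20a-5p, mmu-miR-19b-3p and mmu-miR-106b-5p were lowest on vehicle 2, and the other 4 were not. All 3 red cell miRNAs on the array were called higher, with sums of 13.00, 13.22, 14.04 and 13.80, and both endothelial ones lower, with sums of 13.92, 13.79, 12.32 and 12.65. miR-378a-3p of adipocytes, at a log2 fold change of -0.23, and miR-200b-3p, the tested 1 of 5 mesothelial miRNAs, at 0.24, were not called. The part of these cell types in the members' differences was not tested.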

How the data were processed

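The authors hybridised Cy3-labelled RNA to Agilent arrays and deposited Feature Extraction 10.7.1.1 files with the linear intensity of each of 52044 spots, and a table of log2 values described as quantile-normalized. With limma 3.58.1 in R 4.3.3, mean spot intensities were background-corrected by normexp without local background or offset. Control and outlier spots (61 of 1440 member spot values) were then left out, quantile normalization followed, and the spots of a miRNA were reduced to 1 log2 signal by median polish, after robust multi-array analysis, which the methods name. SAM, also named there, was not run. Tests were two-sided (lmFit, eBayes, Benjamini-Hochberg) and covered the 425 of 1247 miRNAs detected by the scanner software on both vehicle or on both CL arrays. Called means an unadjusted p under 0.05. The exact permutation test of 2 against 2 arrays cannot go below 0.333, and the number of arrays limits the precision. The members, the lists of relatives and markers, and the alternatives were chosen with earlier results of these data known. The text names every member, relatives from the lists, the 3 miRNAs nearest in pattern, and markers. Sequences of 28 of 30 members and relatives were found in RefSeq. The fit was run on simulated data as a check of the code. Those data gave every miRNA the same spread, unlike the arrays, so no result here rests on them.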

Additional observations from a re-analysis of the deposited data

How the results depend on the processing

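mmu-miR-106b-5p and mmu-miR-18a-5p were above 0 in all 23 alternatives run, as was mmu-miR-19a-3p, and they fell short of the unadjusted threshold in 3, 5 and 11 of them. The log2 fold change of mmu-miR-18a-5p ran from 0.27 with local background and an offset of 50 to 1.15 with the scanner software's totals. That of mmu-miR-106b-5p ran from 0.56 to 0.99 and that of mmu-miR-19a-3p from 0.37 to 1.22. mmu-miR-92a-3p was below 0 in all 23 alternatives. mmu-miR-17-5p ran from -0.032 with no normalization between arrays to 0.31 with the scanner software's totals. It was at 0.28 with the trend on probe composition removed and at 0.19 in the deposited table. It was at -0.014 without vehicle replicate 1 and at 0.059 without vehicle replicate 2. With median centring, 1 member was called higher and 91 tested miRNAs were called in all. With the methods' t-test, 0 members were called higher and 52 tested miRNAs in all, and none passed an adjusted p of 0.05. With the trend on probe composition removed, 1 member passed the adjusted threshold, as did 51 of all 425 tested miRNAs. The replicate block changed no member's call at the unadjusted threshold, but brought 40 tested miRNAs past the adjusted one, against 0 without it. With the block and median polish to a tolerance of 0.0001, 3 members and 111 tested miRNAs passed it. Samples with the same number deviated together with a correlation of 0.12 over 2 pairs, and no source says that the numbers pair the arrays. Over the fits that left out 1 array, 0 to 5 members were called higher, 0 to 1 lower and 0 to 6 passed the adjusted threshold (6 without vehicle replicate 1, where 230 of all tested did), and 61 to 263 tested miRNAs were called. The cause was not tested for any of these changes.

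Of all calls, 53.4% were higher in CL, which was 79 of the 425 tested miRNAs. The share was 33.1% (44 tested miRNAs) with arrays scaled by the 75th percentile over detected probes. It was 34.3% (46) without normalization and 42.6% (46) in the deposited table. In each of these alternatives 2 members were called higher. With the 75th percentile over all probes the share was 59.8% (76), and 4 members were called higher. The scanner software's totals gave 58.1% (68) and 2 members, and the methods' t-test 61.5% (32) and 0 members. Without normalization the median log2 fold change of all tested miRNAs was -0.12, and that of the members was 0.20. The limits are 2 pools per group, 1 slide whose row went with treatment, and probes of mmu-miR-17-5p that were dim and shared with mmu-miR-106a-5p.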
